A study of Arabidopsis thaliana with 2 samples.

Results

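B-type cyclins are regulatory subunits that bind cyclin-dependent kinases (CDKs) and switch them on at entry into mitosis. They are destroyed at anaphase after the anaphase-promoting complex marks them for the proteasome, which lets cells leave mitosis. In plants their genes are transcribed in G2 and M phase, and the MYB3R family of MYB proteins is known to act on such genes. Of this family, MYB3R4 is described as an activator and MYB3R3 and MYB3R5 as repressors.

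The family described here has 9 genes of Arabidopsis thaliana in 3 classes. Of the CYCB1 class it includes CYCB1;1 (AT4G37490), CYCB1;2 (AT5G06150, CYC1BAT in the gene table), CYCB1;3 (AT3G11520) and CYCB1;4 (AT2G26760), but not CYCB1;5. The CYCB2 class holds CYCB2;1 (AT2G17620), CYCB2;2 (AT4G35620), CYCB2;3 (AT1G20610) and CYCB2;4 (AT1G76310), and CYCB3;1 (AT1G16330) stands alone. They were chosen by family and locus code from 27444 protein-coding genes on the 5 nuclear chromosomes. No measured value entered the choice, but earlier results of these data were known when it was made. For each gene, every MYB3R3-GFP peak that overlapped the gene or the 1000 bp to either side was taken.

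The chromatin came from untreated whole seedlings of the Col-0 ecotype, 9 days after germination, of a line expressing a fusion of MYB3R3 with GFP, a green fluorescent protein used here as a tag. Fragments bound by the fusion were precipitated through the tag and sequenced as 1 library, beside 1 input library from the same line that was not analysed here. The labels do not name the promoter of the fusion gene, the state of the endogenous MYB3R3 gene or the number of plants pooled. The ChIP library was used in the form of 2931 deposited peaks, each with a start, an end and a score. The score ranks peaks within the list, from 4.13 to 749.6 with a median of 17.4. Its formula is unknown, as is the number of reads behind each peak. With 1 list there was no replicate error, and no difference between genes was tested. Whole seedlings hold dividing and non-dividing cells, so binding in more cells and stronger binding per cell cannot be told apart.

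MYB3R3-GFP peaks were present at 8 of the 9 B-type cyclin genes, and CYCB2;1 was the exception. By the same rule, 3828 of 27444 protein-coding genes (13.9%) had a peak, and among the 12994 genes as long as the members (1988 to 5075 bp) 16.7% had one. The 8 genes held 9 peaks, because AT4G35620 had 2. In AT5G06150, AT3G11520, AT2G26760, AT4G35620 and AT1G76310 the highest peak had a score between 68.5 and 92.8, within the top 9.28% of the list. AT1G16330 and AT1G20610 stood lower, and AT4G37490 lay just below the median of the list.

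The same 8 genes had a peak with a flank of 500 bp, of 2000 bp or with no flank, and when the midpoint of the peak had to lie in the gene or its flank. The shares of all protein-coding genes under these rules were 11.9%, 17.8%, 8.39% and 13.4%. With the 1467 highest-scoring peaks 7 members had a peak, against 7.59% of all genes, and with the 733 highest-scoring peaks 6 did, against 4.14%. AT4G37490 was lost at the first of these steps and AT1G20610 at the second.

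**Figure D1:**
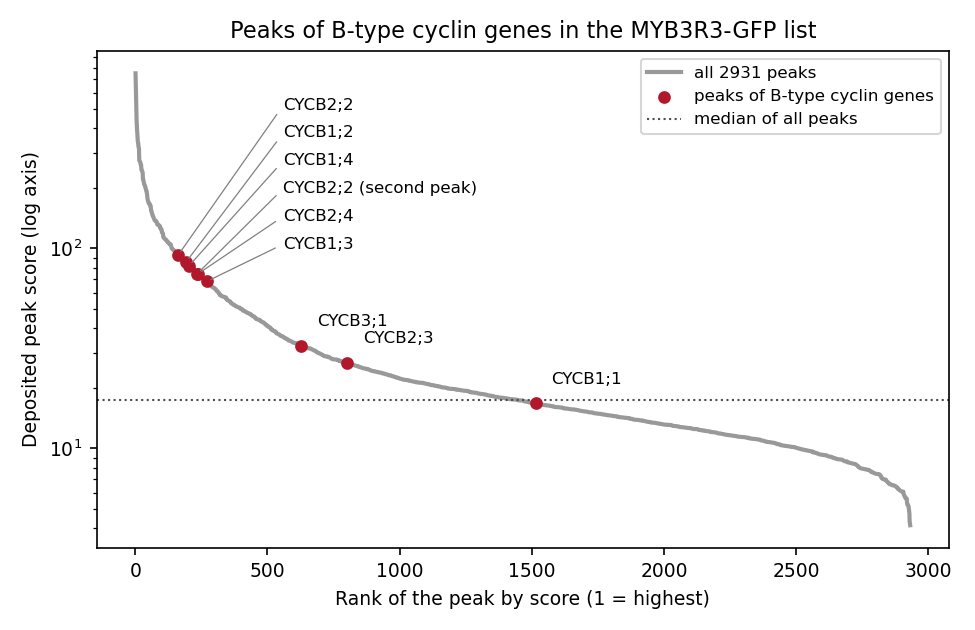
Score (log axis) against rank for all 2931 peaks (grey line), with the 9 peaks of B-type cyclin genes as red points and the median score as a dotted line. Of these 9 peaks, 6 lie between ranks 163 and 272, and the AT4G37490 peak lies at rank 1514, below the median.

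CYCB1;1, the B-type cyclin most used to mark dividing cells in plant tissues and also known to act with CDKB1 kinases in repair of DNA breaks, had the lowest score of the 8 genes. Its peak (chromosome 4, 17624220 to 17624549, TAIR10) had a score of 16.8, rank 1514 of 2931, against the list's median of 17.4. The peak was 330 bp wide, while the 100 peaks within 50 ranks of it had a median width of 251 bp. It covered 89 bp inside a gene end and 241 bp beyond it. A low rank came here with a width above that of peaks of similar score.

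The other CYCB1 genes among the 9, which encode mitotic cyclins of the same class, had scores of 68.5 to 85.7. CYCB1;2 had a peak of 569 bp with a score of 85.7 (chromosome 5, 1861383 to 1861951), rank 193. CYCB1;4 had a peak of 421 bp with a score of 82.0 (chromosome 2, 11401082 to 11401502), rank 204. CYCB1;3 had a peak of 359 bp with a score of 68.5 (chromosome 3, 3627085 to 3627443), rank 272. In the order just given, these peaks stood in the top 6.58%, 6.96% and 9.28% of the list, and that of AT4G37490 at 51.7%.

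The CYCB2 genes covered the whole spread of the family, from the highest peak to none. CYCB2;2 had the highest score of the 9 genes, 92.8 (chromosome 4, 16901186 to 16901723), rank 163, in a peak of 538 bp that lay across a gene end. Its second peak, on the same side of the gene, was 578 bp wide with a score of 74.8 (chromosome 4, 16900073 to 16900650), rank 235. The edge of that second peak lay 945 bp from the gene, just inside the 1000 bp of the rule, and the peak overlapped the neighbouring gene AT4G35610 by 196 bp. A gap of 535 bp separated the 2 peaks, whereas the median gap from a peak to its nearest neighbour in the list was 8522 bp. Peaks that reach the same gene lie near each other by the rule itself, so this median is not a like comparison. In related genes with 2 peaks, the gap was 217 bp at CYCD4;1 and 3064 bp at CDC20.1. Both CYCD4;1 peaks lay nearest to the same gene end, but the CDC20.1 peaks lay at opposite ends, so its gap is not a like comparison. Of all genes with a peak, 11.3% had 2 or more.

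CYCB2;4 had a peak of 441 bp with a score of 74.7 (chromosome 1, 28630512 to 28630952), rank 238. CYCB2;3 had the narrowest peak of the family, 286 bp, with a score of 26.9 (chromosome 1, 7137739 to 7138024), rank 801. The first of these ranked in the top 8.12% and the second in the top 27.3%. CYCB2;1 had no peak, and the nearest one lay 20062 bp from the gene with a score of 93.6. For the 8 other genes the nearest peak beyond the rule lay 5678 to 39157 bp away. Binding at AT2G17620 below the authors' threshold would not be seen in the list.

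CYCB3;1, known for a part in male meiosis, had a peak of 383 bp with a score of 32.6 (chromosome 1, 5587289 to 5587671), rank 627. This put it in the top 21.4% of the list, next above AT1G20610 in the order of the family. At 5075 bp it was also the longest of the 9 genes.

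The highest peak sat across a gene end in all 8 genes. It overlapped the gene itself, by 89 bp in AT4G37490 up to 385 bp in AT2G26760. Of the 3828 protein-coding genes with a peak, 2303 were overlapped by a peak, whether or not it was their highest. Among related genes with a peak, the highest peak overlapped the gene in 6 of 7 A-type and 3 of 5 D-type cyclin genes. This was also so in 5 of 5 CDK and CKS genes and 6 of 6 genes of cyclin B degradation. The midpoint of the highest peak lay within 200 bp of a gene end in 8 of 8 B-type genes. This was so for 48.9% of the 3828 protein-coding genes with a peak. It was so for 53.1% of the 1136 genes with one of the 733 highest-scoring peaks. The midpoint was nearest to the gene end in AT3G11520, 9 bp inside, and in AT1G16330, 19 bp outside. AT5G06150 and AT1G76310 had their midpoints 36 and 57 bp inside, and AT1G20610 and AT4G37490 had theirs 53.5 and 76.5 bp outside. Farthest from the end were the midpoints of AT4G35620, 141.5 bp outside, and AT2G26760, 174 bp inside. Strand was not used, and the ends are therefore not assigned to the 5′ or the 3′ side.

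**Figure D2:**
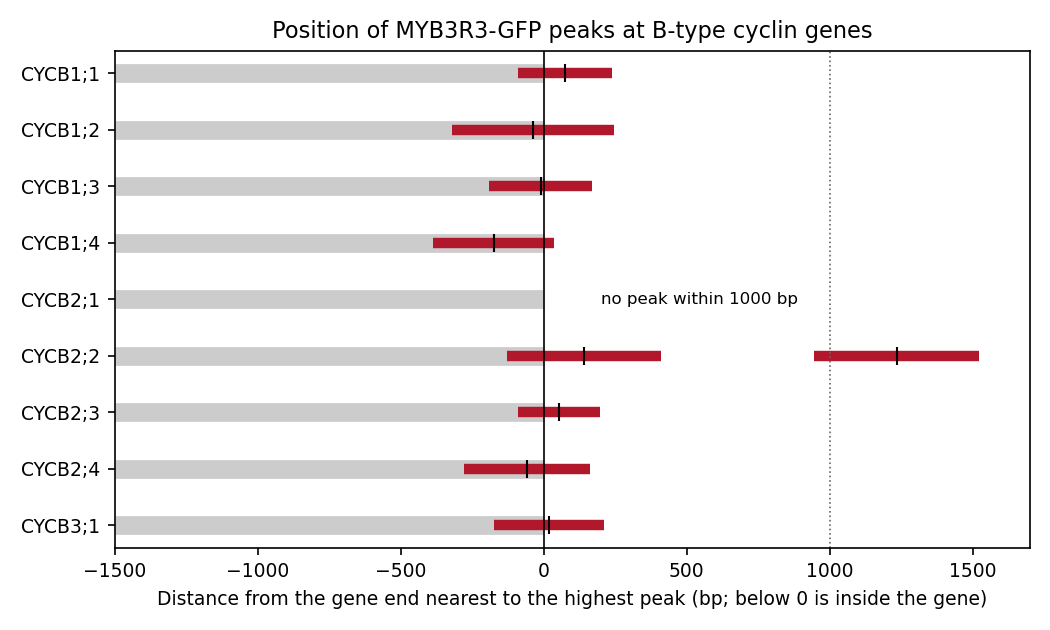
Peaks (red bars, black ticks at their midpoints) drawn to scale against the gene end nearest to the highest peak of each gene, at 0 bp. Gene bodies are grey and shown up to 1500 bp, and the dotted line marks the 1000 bp of the rule. All 8 highest peaks cross the gene end, and the second peak of AT4G35620 starts 945 bp outside it.

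In each of the 8 genes the highest peak lay at the end with more space to the next protein-coding gene. At AT4G37490 the space was 1079 bp at the peak end and 65 bp at the other end. It was 1327 and 57 bp at AT4G35620, and 5143 and 204 bp at AT1G20610. The ends differed least in AT1G16330, with 260 and 232 bp. Among the 1871 protein-coding genes with a peak midpoint within 200 bp of an end, 61.0% had it at the wider side, and among the 603 of these with one of the 733 highest-scoring peaks 60.4% did. Of the genes with such a midpoint in 4 related lists, it was so in 4 of 6 A-type and 2 of 2 D-type cyclin genes, in 4 of 5 CDK and CKS genes and in 4 of 5 genes of cyclin B degradation. This property was looked at after the positions were seen and was not tested. AT2G17620, without a peak, had 7835 bp on one side and 25 bp on the other, the widest and the narrowest space of the family.

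**Figure D3:**
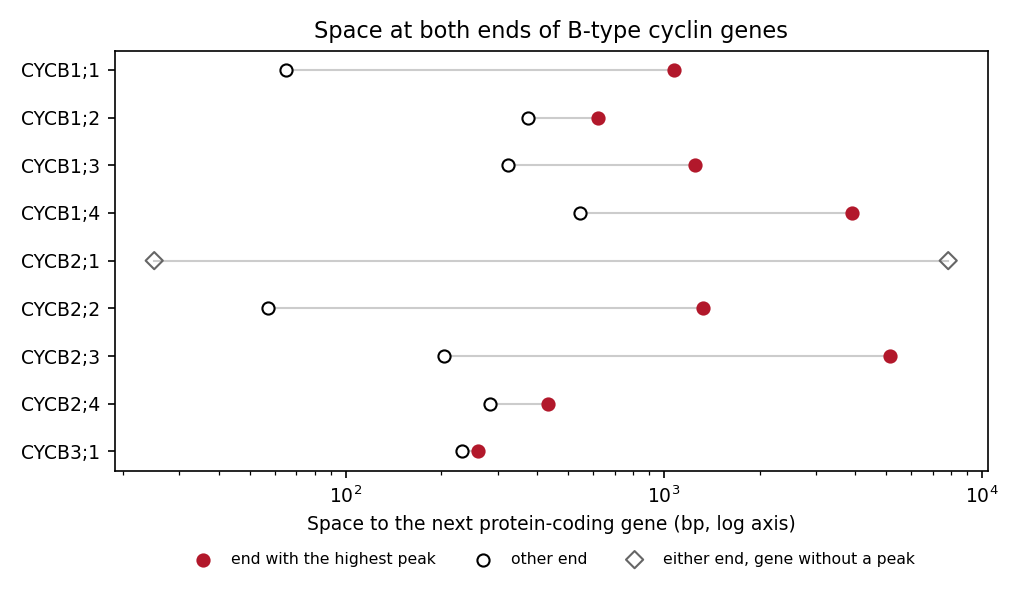
Space in bp (log axis) from each B-type cyclin gene to the next protein-coding gene at the end with the highest peak (red) and at the other end (open circles), with both ends of the gene without a peak as open diamonds. The red point lies to the right in all 8 genes with a peak, by 28 bp in AT1G16330 and by 4939 bp in AT1G20610.

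Several of the peaks could also be counted for a neighbour. The peaks of AT3G11520, AT2G26760 and AT1G20610 reached no other protein-coding gene within 1000 bp. Of all 2931 peaks, 43.2% reached 1 protein-coding gene. With these peaks alone, 3 of the 9 members had a peak, against 4.22% of all protein-coding genes. The peak of AT3G11520 also reached 2 snoRNA genes. Of the highest peaks of the other 5 members, that of AT1G16330 had the closest neighbour, ATKDSA2 (AT1G16340) at 50 bp. FRS4 (AT1G76320) lay 270 bp from the peak of AT1G76310 and ATO (AT5G06160) 373 bp from that of AT5G06150. AT4G37500 lay 838 bp from the peak of AT4G37490, and AT4G35610 lay 917 bp from the higher peak of AT4G35620. None of these 5 neighbours was overlapped by those peaks, whereas all 5 cyclin genes were.

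Higher-scoring peaks of the family also tended to be wider. Spearman's rho between score and width was 0.82 over the 9 peaks and 0.57 over all 2931 peaks, a description of peaks that share 1 library. The family's widths ran from 286 to 578 bp with a median of 421 bp, against a median of 275 bp for all peaks and 389 bp for the 733 highest-scoring peaks. Set against peaks within 50 ranks of each, 6 of the 9 were wider than the median, among them the second peak of AT4G35620 (578 against 418 bp) and the peak of AT5G06150 (569 against 440.5 bp). The peaks of AT3G11520 (359 against 399.5 bp), AT2G26760 (421 against 440.5 bp) and AT1G20610 (286 against 302 bp) were narrower. By construction, about as many peaks of the whole list lie above the median of like-ranked peaks as below it. The count of 6 of 9 is near that share and was not tested.

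**Figure D4:**
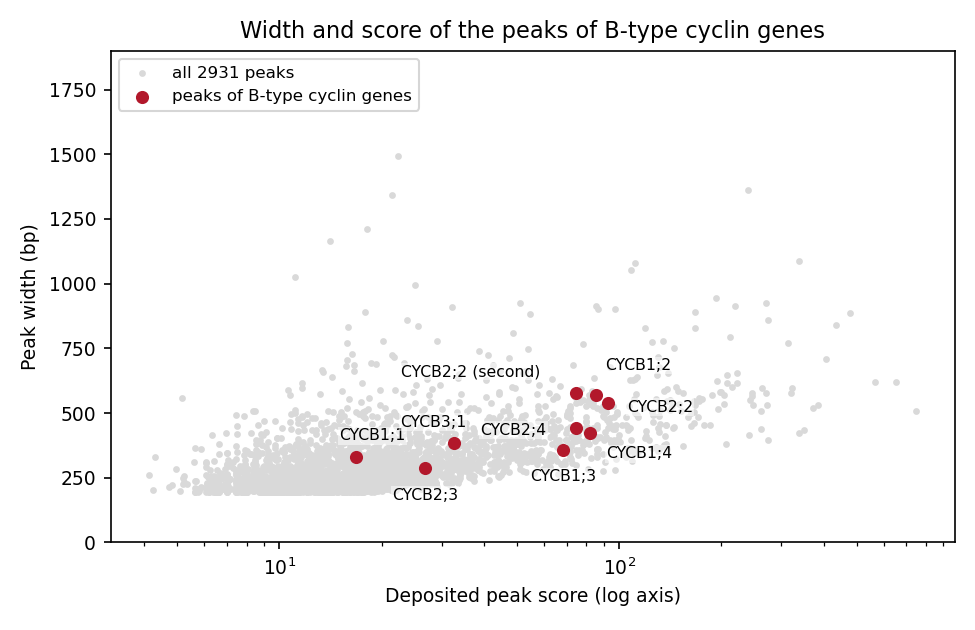
Width in bp against score (log axis) for all 2931 peaks (grey) and the 9 peaks of B-type cyclin genes (red). The peaks of AT4G37490 and AT1G20610 lie at 330 and 286 bp, and both peaks of AT4G35620 and that of AT5G06150 lie at 538 to 578 bp.

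Set beside the other cyclins, the 9 B-type genes had 1 member without a peak and no score above 100. CYCB1;5, a B-type cyclin gene outside the 9, also had no peak. By the same rule 13.9% of all protein-coding genes had a peak. A-type cyclins had a peak at 7 of 10 genes, with CYCA2;2, CYCA2;4 and CYCA3;3 lacking one. The last of these lay 1278 bp from the peak of its neighbour CYCA3;4, which would count with a flank of 2000 bp. The highest A-type score was 568.1 at CYCA1;1 and the lowest 13.5 at CYCA3;4. CYCA2;3 counted only through a peak 929 bp from the gene, which overlapped another gene, IAA5. Of the A-type genes 1 reached the 733 highest-scoring peaks, as 6 B-type and 4 D-type genes did, against 4.14% of all protein-coding genes. D-type cyclins, which act in G1, had a peak at 5 of 10 genes. Their scores ran from 18.6 at CYCD2;1, 779 bp outside the gene, to 273.5 at CYCD4;1. All 3 genes of the CYCD3 class had no peak, nor had CYCD6;1 or CYCD7;1. The median score of the genes with a peak was 71.6 for B-type, 25.8 for A-type and 106.6 for D-type cyclins, and these differences were not tested. The midpoint of the highest peak lay within 200 bp of a gene end in 8 of 8, 6 of 7 and 2 of 5 of these genes. The share was 48.9% over all 3828 protein-coding genes with a peak.

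Of the CDK, CKS and cyclin B degradation genes, those with a peak had scores in the range of the B-type cyclins or above it. Of the CDKs and the CKS subunits that bind them, 5 of 7 genes had a peak, against 13.9% of all protein-coding genes. Their scores ran from 31.4 at CDKB2;2 to 247.8 at CKS2, and CDKA;1 and CKS1 had no peak. The absence at CKS1 holds for the 1000 bp rule, since the CKS2 peak lay 1301 bp from it and would count with a flank of 2000 bp. Of the 5 highest peaks, 1 reached no other protein-coding gene, and of all 2931 peaks 43.2% reached 1 protein-coding gene. Those of CKS2, CDKB1;1 and CDKB2;1 each overlapped another protein-coding gene as well. Of the activators and inhibitors of the anaphase-promoting complex, which set when cyclin B is destroyed, 6 of 7 had a peak. Scores ran from 20.4 at CCS52A2 to 203.01 at UVI4, and CCS52A1 had no peak. In 2 of these 6 genes the highest peak reached no other protein-coding gene. CDC20.1, an activator, had 2 peaks with scores of 94.6 and 45.8, and the lower one was also the peak of its neighbour CDC20.2. CCS52B, another activator, had a peak with a score of 45.5 whose midpoint lay 528.5 bp inside the gene, away from its ends. The midpoint of the highest peak lay within 200 bp of a gene end in 5 of 5 CDK and CKS genes with a peak. It did so in 5 of 6 genes of cyclin B degradation, all but CCS52B, and in 48.9% of the 3828 protein-coding genes with a peak.

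**Figure D5:**
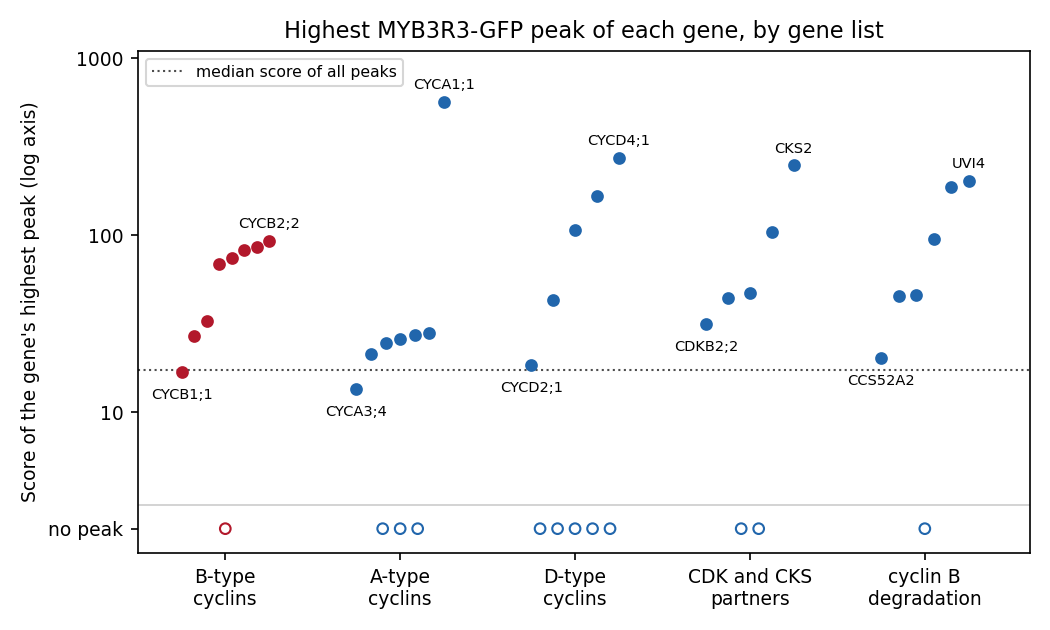
Score of the highest peak (log axis) of each gene in 5 lists, with genes without a peak as open circles in the band at the bottom and the median score of all peaks as a dotted line. B-type cyclins (red) lie between 16.8 and 92.8 with 1 gene without a peak, and CYCA1;1 lies highest of all at 568.1.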

How the data were processed

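The authors deposited 1 peak list for the ChIP library, with a score per peak. Bowtie 0.12.7, SAMtools 0.1.18 and MACS2, and the build TAIR10, are named per the submitters' processing notes. The role of each tool, the way the input entered and the peak threshold are not stated there. Each row also holds 2 other deposited values, the start (taken to count from 0) and the end in bp, printed here counting from 1. The list gives no read depth and no summit, so midpoints stood for positions.

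Gene names and positions came from RefSeq's TAIR10.1 table, where all 43 loci of the 5 lists were found. Its coordinates are not printed. Since the build names differ, the peaks were moved along the chromosomes in steps of 100 bp, up to 5000 bp each way. In place, 77.3% of midpoints lay within 500 bp of a protein-coding gene end. Moved by at least 4000 bp, the median was 40.7%, and the best position was at most 100 bp from 0 on each chromosome. No strand or sequence was used, so no sequence is printed and the planned motif counts were not made.

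A gene had a peak if at least 1 bp overlapped the gene or the 1000 bp beside it, and a peak counted for every gene it reached. Ranks run from the highest score. All 9 members are named, with the genes that share their peaks and, of the other lists, the extremes and the genes without a peak. CDC20.1, CDC20.2 and CCS52B were singled out once their values were known. The members and lists were chosen with earlier results of these data known. Alternatives were other flanks, the higher-scoring 1467 or 733 peaks, midpoints, peaks that reached 1 gene, and ranks among genes. The overlap rule was tested on simulated data. The work used Python 3.11.15 with NumPy 2.4.6, pandas 2.3.3, matplotlib 3.10.9 and SciPy 1.17.1.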

Additional observations from a re-analysis of the deposited data

How the results depend on the processing

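The count of B-type cyclin genes with a peak, 8 of 9, stayed within 1.5 times under 6 of 7 alternatives, at 6 to 8 genes. With the peaks that reached 1 protein-coding gene it was 3, and fewer peaks enter by construction. The 7 alternatives are not separate checks. Since a peak overlapped each of the 8 genes, no choice of flank could lower their count. When genes were ranked by their highest peak among the 3828 genes with a peak, in place of ranks among all peaks, all 8 members stood lower, from the top 6.79% for AT4G35620 to 55.9% for AT4G37490. The motif alternative was not run for lack of sequence. No paired analysis was possible because the study has a single ChIP library, so no library could be left out either. With depth unknown, binding below the authors' threshold cannot be seen.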

Other observations

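On chromosome 1, 2 of the CYCB2 genes lay in the same stretch as a CDKB2 gene, and all 4 had a peak. By the same rule 13.9% of all protein-coding genes had a peak. How often other genes with a peak lie as near each other was not counted. CDKB2 kinases are mitotic CDKs of plants. CYCB2;3 (score 26.9) and CDKB2;2 (31.4) had their peaks 156.5 kb apart, with 9 other peaks and 41 protein-coding genes between them. CYCB2;4 (74.7) and CDKB2;1 (44.2) had theirs 91.2 kb apart, with 2 other peaks and 23 genes between them. The CDKB2 peaks were 544 and 575 bp wide and the CYCB2 peaks 286 and 441 bp. The genes of a pair were not adjacent. These pairs were picked after the values were seen, and nothing was tested.

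The gene table lists another B-type cyclin gene, CYCB1;5 (AT1G34460), which is not among the 9. It had no peak by the same rule, and the nearest peak lay 58625 bp away.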
